A study of Mus musculus with 2 samples.

Results

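A group of 10 lysosomal genes, of the 16819 in the matrix, was followed through the CD45+ cells of the mouse dorsal root ganglion (DRG), the cluster of sensory nerve cell bodies beside the spinal cord. They were chosen by name, with earlier results of these data known. The cathepsins are the cysteine proteases Ctsb, Ctsc, Ctsl, Ctss and Ctsz, the aspartic protease Ctsd and the serine carboxypeptidase Ctsa. Their partners are Lgmn, Cst3 and Lamp1. Cells came from wild-type naive BALB/cAnNRj mice, 3 male and 3 female, for which the labels gave no age. Cervical, thoracic and lumbar DRGs were pooled within a mouse, digested with collagenase, dispase and DNase, sorted as CD45+ and negative for the dead-cell dye DAPI, marked with 1 hashtag antibody per mouse and run together in a single 10x 3′ lane. All groups shared strain, genotype and the lack of treatment, and differed by cell class or sex. The smaller deposited matrix held the 3 males (481, 772 and 1415 cells and 4239463, 5656097 and 13508078 unique molecular identifiers, UMIs), and the 1073 female cells came from the larger deposited matrix of the same lane. Ptprc, the gene of CD45, had a UMI in 78.0% to 87.2% of the cells of each mouse.

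Cathepsins are proteases of the lysosome, made as inactive precursors and activated in its acid lumen by one another, by themselves or by legumain (Lgmn), an asparaginyl endopeptidase. Cystatin C (Cst3) is a secreted inhibitor of the cysteine cathepsins and of legumain, and Lamp1 is a major glycoprotein of the lysosomal membrane. In macrophages and dendritic cells these enzymes digest what the cell takes up. Cathepsin S (Ctss) also trims the invariant chain (Cd74) before MHC class II molecules are loaded, stays active at neutral pH, and when released near sensory neurons sheds the chemokine domain of fractalkine from the cell surface, a route linked to pain signaling. Cathepsin C (Ctsc, dipeptidyl peptidase 1) activates the serine proteases of neutrophil granules.

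Many lysosomal genes carry CACGTG in the promoter, the core of the element bound by the transcription factor TFEB, and myeloid genes often carry GAGGAAGT, a purine-rich sequence of the kind bound by PU.1. Both were searched on both strands in the 250 bases before and 50 bases after each RefSeq start site (GRCm38.p6, the assembly called mm10 in the labels). The table of promoters held 9 of the 10 members, with 11 promoters. CACGTG stood in 5 of these 11 and in 7.15% of all 32851 promoters, and in 15 of the 69 promoters (21.7%) of the lysosomal hydrolases, membrane proteins and proton pump subunits listed for comparison. GAGGAAGT stood in the Ctss and Ctsc promoters, on the reverse strand, and in 3.2% of all promoters. The longer palindrome TCACGTGA, which contains CACGTG, was found in the Ctsa and Ctsd promoters and in 0.974% of all. A 10-base palindrome with TCACGTGA at its centre was also searched. It stood in 0 of the 11 member promoters, in 1 of the 69 promoters listed for comparison and in 0.326% of all. Ctsa and Ctsc also had a promoter with a match and are not printed. The promoters printed here were taken from those with a match, and capitals mark CACGTG, or in Ctss the reverse strand of GAGGAAGT:
Lamp1, chr8:13158911-13159210 on the plus strand: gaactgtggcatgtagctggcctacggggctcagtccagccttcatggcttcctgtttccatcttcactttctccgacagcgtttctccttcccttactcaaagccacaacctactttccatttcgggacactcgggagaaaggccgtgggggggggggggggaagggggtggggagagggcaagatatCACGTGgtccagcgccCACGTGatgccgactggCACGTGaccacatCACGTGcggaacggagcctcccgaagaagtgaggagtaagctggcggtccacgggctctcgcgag
Ctsd, chr7:142387778-142388077 on the minus strand: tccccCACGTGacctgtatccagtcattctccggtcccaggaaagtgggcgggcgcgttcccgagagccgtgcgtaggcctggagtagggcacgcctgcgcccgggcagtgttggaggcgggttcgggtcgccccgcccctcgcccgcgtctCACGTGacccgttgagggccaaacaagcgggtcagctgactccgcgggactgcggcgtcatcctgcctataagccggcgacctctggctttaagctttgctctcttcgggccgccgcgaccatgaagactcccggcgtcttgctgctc
Ctsl, chr13:64370471-64370770 on the minus strand: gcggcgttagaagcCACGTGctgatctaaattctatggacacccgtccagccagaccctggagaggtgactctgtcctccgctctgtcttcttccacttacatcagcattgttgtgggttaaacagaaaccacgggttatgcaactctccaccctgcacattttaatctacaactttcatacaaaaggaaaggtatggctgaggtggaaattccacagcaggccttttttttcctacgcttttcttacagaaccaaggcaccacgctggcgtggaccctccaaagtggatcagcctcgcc
Lgmn, chr12:102439043-102439342 on the minus strand: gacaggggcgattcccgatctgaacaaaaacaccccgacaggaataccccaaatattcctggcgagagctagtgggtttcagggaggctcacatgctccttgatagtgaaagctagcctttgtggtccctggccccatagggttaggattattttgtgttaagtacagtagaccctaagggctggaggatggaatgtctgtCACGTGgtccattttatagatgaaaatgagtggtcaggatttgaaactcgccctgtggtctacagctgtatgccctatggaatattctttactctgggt
Ctss, chr3:95526536-95526835 on the plus strand: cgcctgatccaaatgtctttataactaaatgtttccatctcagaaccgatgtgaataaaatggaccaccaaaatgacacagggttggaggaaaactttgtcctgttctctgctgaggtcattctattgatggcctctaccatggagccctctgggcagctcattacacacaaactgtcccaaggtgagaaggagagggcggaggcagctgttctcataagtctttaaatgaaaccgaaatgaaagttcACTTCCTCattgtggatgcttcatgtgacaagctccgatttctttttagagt
Lamp1 held CACGTG 4 times, with first bases at positions -61, -45, -28 and -15 from the start site. In Ctsd it began at -245 and -98, in Ctsl at -236, and in the second of the Lgmn start sites at -49. The promoter of the first Lgmn start site held neither CACGTG nor GAGGAAGT and is not printed. The match in Ctss began at -2. These are matches of letters, and binding was not measured.

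Cells were put into classes by a few marker genes, none of them a member. Macrophages (1405 cells) had C1qa, C1qb and C1qc at 0.5% or more of their UMIs, monocytes (85 cells) had Csf1r with Plac8 or Ly6c2 and passed no other gate, cDC1 (44 cells) and cDC2 (51 cells) are the classical dendritic cell types marked by Xcr1 and Clec9a and by Cd209a, and neutrophils (322 cells), neutrophil precursors (20 cells), B cells (164 cells) and T and NK cells (117 cells) were gated on their own genes. Cells in more than 1 gate (334) or in none (126) were left out. Of 42 check markers not used by the gates, 37 were highest in their own class. The exceptions were Chil3 for monocytes, Flt3 and Irf4 for cDC2, and Ms4a3 and Fcnb for the precursors, a class that rests on Elane, Mpo and Prtn3 with Ctsg. UMIs were summed per mouse and class where a mouse gave at least 10 cells, which left 2 mice for cDC1 and 1 mouse for the precursors. Levels are CPM, the UMI count of a gene scaled to a common library size after TMM normalisation. Marker genes, dissociation genes, cells with microglial transcripts and the floor described below are instead given in CPM of library sizes alone. TMM factors were taken separately over the cell types and over the macrophage groups described below. CPM of macrophages as a whole and of those groups are therefore not on the same scale. Mice are the replicates, in the order male 1, 2 and 3, and p-values come from the quasi-likelihood test of edgeR and were adjusted over all genes tested by the Benjamini-Hochberg method. A 3′ UMI counts 1 captured transcript end whatever the transcript's length, so levels are compared between classes, and different genes are set side by side only as shares of UMIs or as a ratio of UMIs.

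In macrophages 2.77% ± 0.123 of all UMIs came from the 10 genes (SD, n = 3 mice). The share was 3.78% ± 0.265 in the cDC1 of 2 mice and 2.74% ± 0.577 in cDC2, and it was lower in the other classes, at 1.11% ± 0.0475 in monocytes, 0.73% in the precursors of 1 mouse, 0.232% ± 0.0485 in neutrophils, 0.195% ± 0.0227 in B cells and 0.166% ± 0.00849 in T and NK cells. Most of this was Cst3 in macrophages and dendritic cells. Without it the share was 1.04% ± 0.0616 in macrophages, 0.68% ± 0.031 in monocytes, 0.42% ± 0.0393 in cDC2 and 0.152% ± 0.0419 in cDC1. Ctsa, Ctsb, Ctsc, Ctss, Ctsz and Lgmn were highest in macrophages, with no overlap between its mice and those of the next class. Ctsd stood apart, with neutrophils highest, Cst3 was highest in cDC1, and Ctsl and Lamp1 did not separate macrophages from monocytes.

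**Figure D1:**
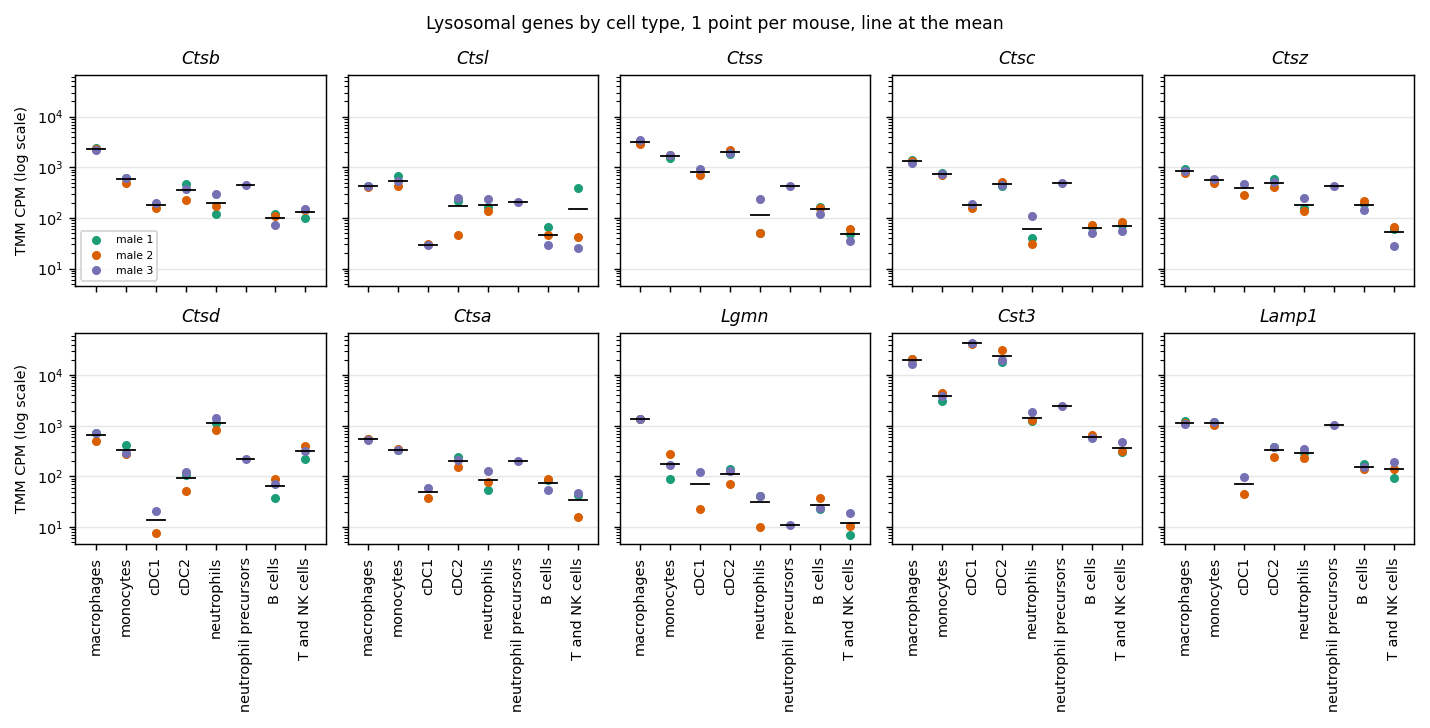
Level of each of the 10 genes in the 8 cell classes, in TMM-scaled CPM on a log axis. Points are mice (up to 3 males per class) and bars mark the mean over mice. The 6 genes Ctsa, Ctsb, Ctsc, Ctss, Ctsz and Lgmn are highest in macrophages, Ctsd in neutrophils and Cst3 in cDC1.

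Among the cysteine cathepsins, Ctss (chr3:95526786-95556403, plus strand, genome build GRCm38) measured 3169, 2859 and 3454 CPM in macrophages. It measured 1868, 2199 and 1893 CPM in cDC2 and 1543, 1739 and 1746 CPM in monocytes, with 691 and 925 CPM in the 2 mice with cDC1. These 4 antigen-presenting or monocytic classes stood well above B cells (161, 160.0 and 121 CPM), neutrophils (49.7, 50.9 and 234 CPM) and T and NK cells (49, 61.7 and 34.4 CPM). The neutrophil range overlapped those of B cells and of T and NK cells, which did not overlap each other. Between macrophages and monocytes Ctss differed by 0.91 (SE 0.24, adjusted p = 0.00383) on the log2 scale, and between macrophages and T and NK cells by 6.08 (SE 0.35, adjusted p = 3.21e-15). The difference from cDC2 was the smallest, 0.67 (SE 0.24, adjusted p = 0.0436), and did not pass under 6 of its alternatives, among them leaving out male 1 (adjusted p = 0.104) or male 2 (adjusted p = 0.0782), over a range of 0.00117 to 0.238.

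Ctsb (chr14:63122462-63145923, plus strand), a broad endopeptidase that can also trim the ends of proteins, measured 2368, 2304 and 2169 CPM in macrophages and 627, 481 and 618 CPM in monocytes (log2 fold change 1.98, SE 0.22, adjusted p = 1.44e-08). Macrophage and monocyte ranges did not overlap, and cDC2 lay lower still at 467, 222 and 371 CPM. Ctsc (chr7:88278085-88310888, plus strand) measured 1372, 1319 and 1235 CPM in macrophages, 777, 714 and 741 CPM in monocytes and 428, 509 and 443 CPM in cDC2. Its lowest mean was in the neutrophils, at 40.4, 30.5 and 108 CPM, where it overlapped B cells. With Cd3d taken out of the T and NK gate, which left more cells as neutrophils, it was 33.9, 83.4 and 73.9 CPM there. The lowest mean was then in B cells, at 61.7 CPM against 63.7 CPM in neutrophils. Ctsz (chr2:174427493-174439039, minus strand), a carboxypeptidase, measured 846 ± 68.8 CPM in macrophages, 551 ± 54.6 in monocytes, 498 ± 88.7 in cDC2 and 183 ± 36 in B cells. Ctsl (chr13:64359337-64370890, minus strand), an endopeptidase, measured 659.7, 427 and 545 CPM in monocytes and 430.3, 417 and 436 CPM in macrophages, ranges that overlapped (log2 fold change -0.36, SE 0.38, adjusted p = 0.537, macrophages minus monocytes).

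Ctsd (chr7:142375911-142388038, minus strand), the main aspartic protease of the lysosome, measured 1158, 814 and 1434 CPM in neutrophils and 726, 493 and 707 CPM in macrophages. All 3 neutrophil values were above the macrophage range (log2 fold change -0.84, SE 0.22, adjusted p = 0.00138, macrophages minus neutrophils). The call depended on which neutrophils were counted. The gates set aside 240 cells that passed both the neutrophil and the T and NK gate, 236 of them with a Cd3d UMI and nearly none of Cd3e (1.35 CPM) or Trbc2 (0.676 CPM), and with Camp at 36474 CPM against 21017 CPM in the other neutrophils. With Cd3d taken out of the gate the neutrophils numbered 550 and their Ctsd was 797, 597 and 959.8 CPM, a log2 difference of -0.33 with adjusted p = 0.164. Scaling by library size alone gave -0.32 with adjusted p = 0.185, and the range over alternatives was 4.09e-05 to 0.366. At the other end Ctsd was nearly missing from cDC1, at 7.6 and 20.4 CPM in 2 mice, a log2 difference from macrophages of 5.25 (SE 0.47, adjusted p = 1.75e-10). Ctsa (chr2:164832873-164841032, plus strand), which also shields lysosomal galactosidase and sialidase from breakdown, measured 537 ± 20.9 CPM in macrophages, 335 ± 12.6 in monocytes and 204 ± 43.8 in cDC2.

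Lgmn (chr12:102394084-102439813, minus strand) differed most between macrophages and the nearest other myeloid cells. It measured 1333, 1350.3 and 1377 CPM there, 88, 282 and 167 CPM in monocytes, 137, 71.8 and 127 CPM in cDC2 and 7.01, 10.3 and 18.8 CPM in T and NK cells. The log2 difference was 2.97 (SE 0.27, adjusted p = 1.81e-10) from monocytes and 3.54 (SE 0.29, adjusted p = 4.32e-11) from cDC2, the largest of the 10 genes in both comparisons. Cst3 (chr2:148871722-148875692, minus strand) measured 40772 and 43903 CPM in cDC1, 18582, 31298 and 20346 CPM in cDC2 and 20739, 21047 and 16871 CPM in macrophages. The cDC1 values lay above all macrophage values (log2 fold change -1.11, SE 0.21, adjusted p = 8.54e-05, macrophages minus cDC1), while cDC2 and macrophages overlapped (log2 fold change -0.26, SE 0.19, adjusted p = 0.373). Over the alternatives the adjusted p for macrophages minus cDC2 ran from 0.0464 to 0.911. Monocytes, at 3042, 4497 and 3917 CPM, held far less of this inhibitor. Lamp1 (chr8:13159161-13175338, plus strand) measured 1229, 1133 and 1099 CPM in macrophages and 1191, 1019.9 and 1175 CPM in monocytes, with a log2 difference of 0.027 (SE 0.18, adjusted p = 0.943) that turned to -0.31 with library sizes alone.

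Counted over the 10 genes, 8 were called higher in macrophages than in monocytes and none lower, where 29.6% of the 6966 genes tested were called (15.6% higher and 14% lower). Against cDC2 9 were higher and none lower, where 22.1% of all genes were called (11.2% and 10.9%). Against cDC1 9 were higher and 1, Cst3, lower, with 25.4% of genes called (13.1% and 12.3%). Against neutrophils 9 were higher and Ctsd lower, with 58.8% called (30.7% and 28.1%), and against the precursors of 1 mouse 8 were higher and none lower, with 24.5% called (13% and 11.5%). All 10 were higher than in B cells, where 53.3% of genes were called (28% and 25.3%), and than in T and NK cells, where 45.3% were (23.9% and 21.4%). Many genes differed between these cell types, so that the counts of members stand beside a high background. The split of all called genes depended on the scaling. With library sizes alone in place of TMM it went from 1087 higher and 972 lower to 712 and 1739 against monocytes, where the median of all genes moved from 0.044 to -0.27. It went from 780 and 761 to 617 and 1046 against cDC2 (median 0.053 to -0.11), and from 2139 and 1954 to 3211 and 1307 against neutrophils (median 0.14 to 0.65). Against precursors it went from 905 and 801 to 596 and 1527 (median 0.11 to -0.36), against B cells from 1950 and 1762 to 1305 and 3103 (median 0.013 to -0.54), and against T and NK cells from 1668 and 1488 to 1161 and 2631 (median -0.0042 to -0.49). Under that scaling Ctsa and Ctsz lost their call against monocytes (adjusted p = 0.165 and 0.296, ranges over alternatives 0.00316 to 0.165 and 0.00776 to 0.296). Ctsz also lost it without male 1 or male 2 (adjusted p = 0.0869 and 0.0597), and Ctsd lost it without male 3 (adjusted p = 0.0576, range 5.58e-06 to 0.0576). Against cDC2 Ctsz lost its call in the females (adjusted p = 0.0657, range 0.000669 to 0.0657), and against precursors with library sizes alone (adjusted p = 0.189, range 4.23e-05 to 0.189). The calls of Ctsl against cDC2, neutrophils and T and NK cells were lost with DESeq2 (adjusted p = 0.223, 0.158 and 0.11) and without male 2 (adjusted p = 0.253, 0.0658 and 0.0929), within ranges of 7.44e-08 to 0.253, 4.08e-10 to 0.158 and 1.92e-12 to 0.15. Against T and NK cells it was also lost without male 3 (adjusted p = 0.15), and library sizes alone took the calls against cDC2 and T and NK cells (adjusted p = 0.0841 and 0.0831). Ctsd against T and NK cells was 0.23 on the log2 scale in the females, with adjusted p = 0.388 (range 2.59e-08 to 0.388), where it was 1.03 in the males. As given above, the Ctsd call against neutrophils was lost with library sizes alone and with Cd3d taken out of the T and NK gate. Uncalled members also moved. Against precursors the log2 difference ran over alternatives from 0.56 to 1.21 for Ctsl and from -0.31 to 0.73 for Lamp1, and each was called under an alternative.

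The low levels of macrophage genes in other classes were taken as a floor under the low values. Their source, such as free RNA in the droplets, was not tested. The C1q genes, which lymphocytes lack, lay at 1.16% of their macrophage CPM in B cells, 1% in the T and NK class and 0.976% in the neutrophil class, while Apoe lay at 1.79%, 1.44% and 1.46%. The gates had left out cells of these classes that also passed the C1q gate, which bounds the C1q values from above. Apoe was not a gate gene. All these shares of macrophage CPM, and those that follow, were taken with library sizes alone, without TMM. Lgmn was near this floor in the T and NK class (1.21%) and neutrophils (1.57%), and Ctss near it in the same classes (2.25% and 2.28%). In B cells Ctss was above the floor at 7.08% of its macrophage level. Shares of cells with a UMI were counted over the pooled cells of the males, including the 5 cDC1 of male 1. With every cell thinned to 2000 UMIs, Ctss had a UMI in 98.8% of macrophages, 91.8% of monocytes, 90.2% of cDC2, 77.3% of cDC1, 30.1% of B cells and 8.7% of T and NK cells, whose unthinned median depths were 8579, 10686, 13188, 14442.5, 3407 and 4641 UMIs. Of 1405 macrophages 1376 reached that depth, as did 153 of 164 B cells and 115 of 117 T and NK cells. Without thinning Ctss had a UMI in 99.6% of macrophages, 55.5% of B cells and 23.1% of T and NK cells. Lgmn had one in 89.5% of macrophages, 25.9% of monocytes but 4.35% of the T and NK class, and without thinning in 99.1%, 68.2% and 8.55%.

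Within the neutrophil lineage, cathepsin C, the activator of the granule serine proteases, was the member with the largest difference between precursors and the neutrophil class. That class was gated on S100a8 and S100a9 without a marker of maturity. Fcnb (184 against 108 CPM) and Ms4a3 (43.1 against 30.0 CPM) were higher in it than in the precursors. The class also lacked the 240 neutrophils that passed the T and NK gate. Those cells had more Camp (36474 against 21017 CPM) and Ltf (9389 against 4532 CPM) and less Csf3r (84.5 against 414 CPM) than the other neutrophils. With Cd3d taken out of that gate, Ctsd in the neutrophils was 797, 597 and 959.8 CPM. Ctsc measured 479 CPM in the precursors of male 3 (11 cells, the 1 mouse with enough of them) and 40.4, 30.5 and 108 CPM in neutrophils (log2 fold change 2.80, SE 0.31, adjusted p = 2.52e-08). Ctsd went the other way, 223 CPM in precursors against 1158, 814 and 1434 CPM in neutrophils (log2 fold change -2.36, SE 0.39, adjusted p = 1.95e-05). Of the 10 genes, 7 were called higher in precursors and 1 lower, beside 34.2% of all genes called (16.4% higher and 17.8% lower). Library sizes alone changed the split of all called genes from 1145 higher and 1237 lower to 2434 and 509, with Ctsc still higher (3.82) and Ctsd still lower (-1.35). Here the single precursor sum was assumed to vary like the other classes. Keeping cells that passed 2 gates gave precursors in 2 mice, with log2 differences of 2.33 for Ctsc and -1.75 for Ctsd. Cst3 (0.73) then missed the threshold (adjusted p = 0.099, range 1.13e-07 to 0.099), and leaving out male 1 or male 2 also took its call (adjusted p = 0.0796 and 0.0609). Ctsa (log2 fold change 1.13, SE 0.35, adjusted p = 0.0124) lost its call without male 1 (adjusted p = 0.057, range 8.62e-06 to 0.057).

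The study divides DRG macrophages into a CD163+ population and a CD163- population, and here they were split by whether a cell held a UMI of Fcrls, an Fc receptor-like gene of the first, or of Ccr2, the chemokine receptor of monocyte-derived cells. There were 637 Fcrls-only cells (73, 253 and 311 per male), 147 Ccr2-only cells (24, 44 and 79), 557 cells with both and 64 with neither. The study's populations were clusters, and its CD163- cluster was a larger share of macrophages than the Ccr2-only cells here. The classes are therefore not the same cells as the study's populations. Cd163, Mrc1, Maf and Igf1 were highest in the Fcrls-only cells and H2-Aa, Lsp1 and S100a4 in the Ccr2-only cells. A cell with both transcripts can be a cell that makes both or a droplet that took up one of them, and these were not told apart here.

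Fcrls-only macrophages had more Ctsb, Lgmn, Ctsl and Lamp1 and less Ctss than Ccr2-only macrophages. The differences were modest, between 1.39-fold for Lamp1 and 1.71-fold for Ctsb, and in each of the 5 genes the groups did not overlap and all 3 mice had the same direction. In all, 4 of the 10 genes were called higher and 1 lower, beside 7.12% of the 6350 genes tested (3.01% higher and 4.11% lower). Over all genes that was 191 higher and 261 lower, and with library sizes alone it was 248 and 191, with the median of all genes moving from 0.015 to 0.12 and the same 5 members called. The 10 genes took 2.78% ± 0.116 of UMIs in Fcrls-only and 2.86% ± 0.319 in Ccr2-only cells (SD, n = 3). Without Cst3 the share was 1.14%, 1.04% and 1.14% in males 1, 2 and 3 in the Fcrls-only and 1.08%, 0.842% and 0.996% in the Ccr2-only cells, higher in the Fcrls-only cells of each mouse with ranges that overlapped. Neither difference in share was tested.

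**Figure D2:**
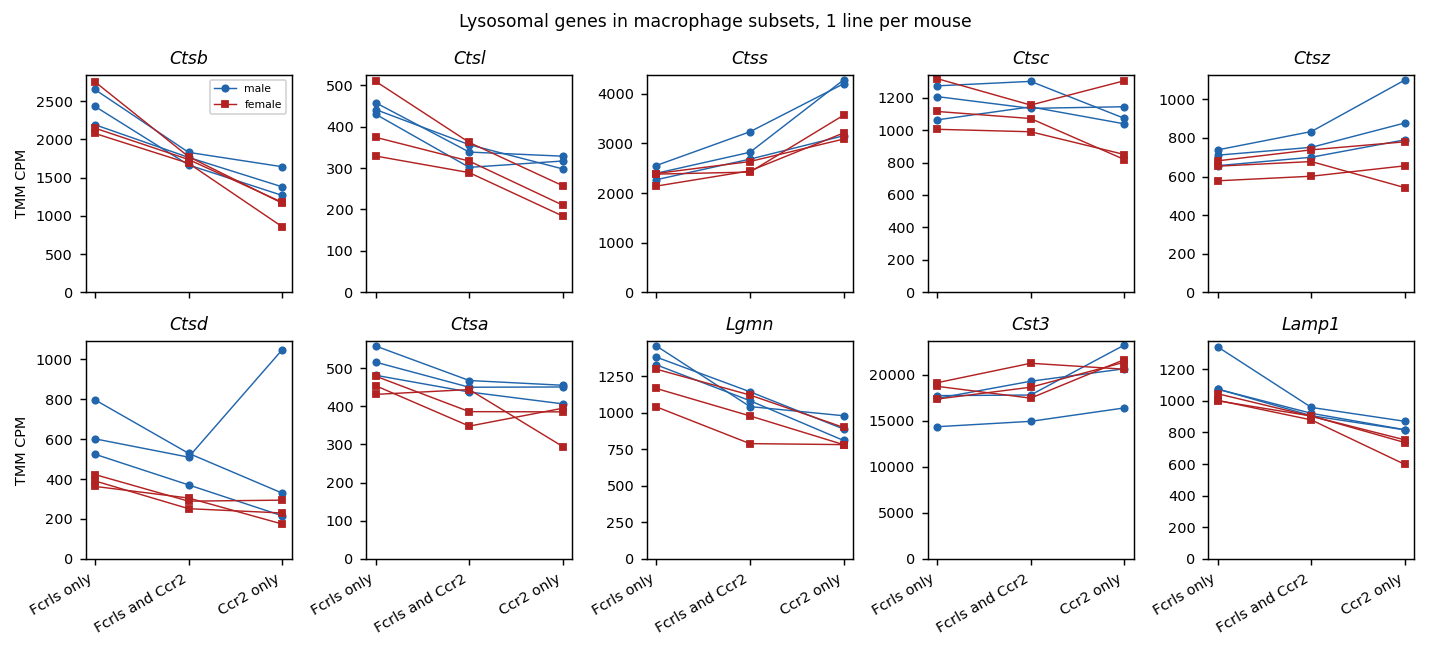
Level of each of the 10 genes in Fcrls-only macrophages, macrophages with both transcripts and Ccr2-only macrophages, in CPM with TMM factors taken over the 3 males and 3 females together, so that values can differ slightly from those of the males alone. Each line joins the 3 groups of 1 mouse, with males as circles and females as squares. Within each sex, Ctsb, Lgmn, Ctsl and Lamp1 are higher in every Fcrls-only than in every Ccr2-only sum, and Ctss is lower.

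Ctss measured 2367, 2244 and 2545 CPM in the Fcrls-only and 4178, 3136 and 4189 CPM in the Ccr2-only cells of males 1, 2 and 3. Each Ccr2-only value was above the highest Fcrls-only value, a 1.61-fold difference (log2 fold change -0.68, SE 0.14, adjusted p = 0.00492). Part of the male 1 value came from 1 of its 24 Ccr2-only cells, the cell with the most Ctsd UMIs described below. Without that cell Ctss in male 1 was 3513 CPM, still above the Fcrls-only values. The call was lost without male 1 (adjusted p = 0.104) and when the split was made on cells thinned to 2000 UMIs (log2 fold change -0.40, adjusted p = 0.0684), with a range over alternatives of 5.35e-05 to 0.104. The direction was the same in all of them.

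Ctsb went the opposite way, with 2616, 2404 and 2182 CPM in the Fcrls-only and 1603, 1259.8 and 1375 CPM in the Ccr2-only cells (log2 fold change 0.77, SE 0.12, adjusted p = 0.000404). Lgmn followed, with 1438, 1313 and 1375 against 956, 805 and 885 CPM (log2 fold change 0.64, SE 0.11, adjusted p = 0.00115). Both were called under all 18 alternatives, including the omission of each mouse. Ctsl measured 451, 425 and 439 against 321, 315 and 297 CPM (log2 fold change 0.50, SE 0.14, adjusted p = 0.026). Lamp1 measured 1323, 1061 and 1069.8 against 849, 812 and 813 CPM (log2 fold change 0.48, SE 0.12, adjusted p = 0.0141). For Ctsl and Lamp1 the groups were separate but the call needed all 3 mice. Without male 1, 2 or 3 the adjusted p was 0.139, 0.122 or 0.203 for Ctsl and 0.144, 0.101 or 0.0697 for Lamp1, and on thinned cells Lamp1 also missed the threshold (adjusted p = 0.0762), within ranges over alternatives of 0.000782 to 0.203 for Ctsl and 0.000452 to 0.144 for Lamp1.

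The other 5 members were not called in the fit without a mouse block. Ctsz measured 728, 649 and 708 against 1074, 786 and 875 CPM (log2 fold change -0.38, SE 0.15, adjusted p = 0.141) and Cst3 17500.1, 17236 and 14298 against 22678, 20537 and 16351 CPM (log2 fold change -0.28, SE 0.13, adjusted p = 0.232). Both were lower in the Fcrls-only cells of all 3 mice, without overlap for Ctsz, and a fit with the mouse as a block called them (adjusted p = 0.0336 for Ctsz, range over alternatives 0.0336 to 0.99, and 0.0475 for Cst3, range 0.0475 to 0.709). Ctsa, at 551, 510.0 and 479 against 444, 448 and 405 CPM, had groups that did not overlap but an adjusted p of 0.32. Ctsc, at 1254, 1192 and 1058 against 1046, 1136 and 1035 CPM, overlapped (adjusted p = 0.669).

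**Figure D3:**
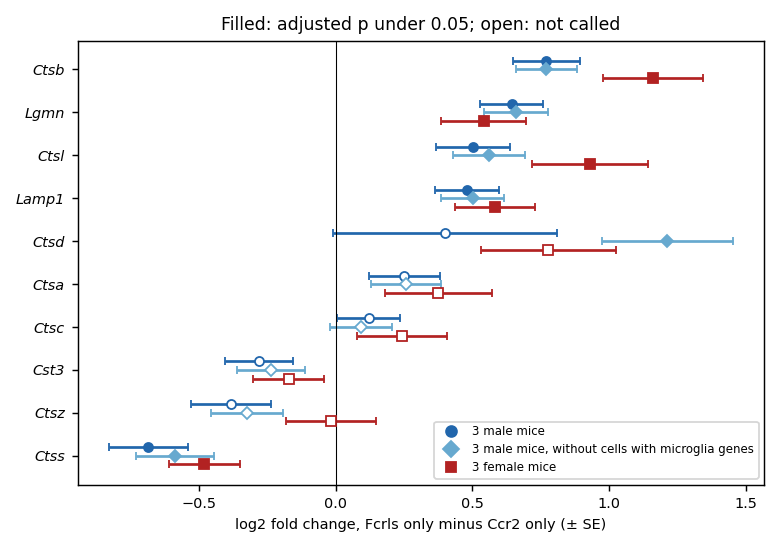
Log2 fold change of each of the 10 genes, Fcrls-only minus Ccr2-only macrophages, with bars of 1 standard error, in the 3 males (circles), in the 3 males without cells that hold at least 3 UMIs of Tmem119 and P2ry12 (diamonds) and in the 3 females (squares). Filled symbols passed an adjusted p of 0.05. Ctsb, Lgmn, Ctsl and Lamp1 lie to the right of 0 and Ctss to the left in all 3 fits, and Ctsd is filled only for the males without those cells.

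Several measurements moved with the split. The dissociation-response genes Fos, Jun, Atf3 and Rhob were all 4 higher in the Fcrls-only cells, with a summed level of 6112 to 11015 CPM against 3353 to 3533 CPM in the Ccr2-only cells. Microglial genes (Tmem119, P2ry12, Olfml3 and Gpr34, 4 of 5 in the matrix, none at 0) summed to 377 to 478 CPM and 241 to 455 CPM, ranges that overlapped. Gpr34 by itself did not overlap, at 244, 315 and 263 CPM in the Fcrls-only and 169, 190 and 116 CPM in the Ccr2-only cells. Tmem119, P2ry12 and Olfml3 each overlapped. The summed marker lists of the other immune cells overlapped between the groups as well, though not every gene in them did. Ngp of the neutrophil list measured 85.9, 95.5 and 88.3 CPM in the Fcrls-only and 116, 141 and 98.5 CPM in the Ccr2-only cells. Igkc and, barely, Cd3e did not overlap either, at a few CPM and in the other direction. Neutrophil markers summed to 210.2 to 233 CPM in the Fcrls-only and 215 to 269.7 CPM in the Ccr2-only cells, monocyte markers to 10.9 to 18.4 CPM in the Fcrls-only and 5.29 to 23.5 CPM in the Ccr2-only cells, and dendritic cell markers to 4.6 to 12.5 CPM in the Fcrls-only and 9.2 to 37 CPM in the Ccr2-only cells, the highest in male 1. T and NK markers summed to 3.07 to 9.59 CPM in the Fcrls-only and 3.07 to 10.6 CPM in the Ccr2-only cells, with Nkg7 at 0 in the Fcrls-only cells of all 3 males. B cell markers summed to 272 to 333 CPM in the Fcrls-only and 253 to 365 CPM in the Ccr2-only cells, of which nearly all was Ighm, while Ms4a1 was at 0 in the Fcrls-only cells of all 3 males and in the Ccr2-only cells of males 1 and 2. Median depth was 9035, 7446 and 9365 UMIs per cell in the Fcrls-only and 7556, 7541 and 8804 in the Ccr2-only cells. The part of the dissociation genes in the differences was not tested.

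Ctsd was the member whose result turned on a single cell. It measured 594, 519 and 794 CPM in the Fcrls-only and 1023, 214 and 328 CPM in the Ccr2-only cells (log2 fold change 0.40, SE 0.41, adjusted p = 0.7), with male 1 far above the other males in the Ccr2-only group. One Ccr2-only cell of male 1 held 133 Ctsd UMIs among its 21924, where the macrophage mean at that depth would give 12.8. It also held 12 UMIs of Tmem119 and 10 of P2ry12, markers of microglia, and 279 of Il1b, with 3 of Ccr2 and none of Fcrls. Without this cell male 1 fell to 309.6 CPM and the log2 difference was 1.16 (SE 0.31, adjusted p = 0.0261). Leaving out male 1 gave 1.24 (adjusted p = 0.0293), and leaving out male 3 gave -0.06 (adjusted p = 0.987), within a range over alternatives of 0.00228 to 0.987.

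Cells with microglial transcripts carried more Ctsd in the males. Of the 1405 macrophages 80 held at least 3 UMIs of Tmem119 and P2ry12, and their Ctsd was 2593, 871 and 1069.5 CPM in males 1, 2 and 3 against 520.4, 407 and 607 CPM in the other macrophages, a ratio of 2.96 ± 1.76 (SD, n = 3). The CPM of this comparison were scaled by library size alone, without TMM. The cell with 133 Ctsd UMIs was 1 of the 9 such cells of male 1, and without it the value of male 1 was 1478 CPM and the ratio 2.25 ± 0.548. In the females, with 5 to 8 such cells each, the ratio was 0.886, 1.16 and 1.57. The other 9 members had mean ratios of 0.950 to 1.43 in the males. With the 80 cells left out Ctsd was called higher in the Fcrls-only cells (1.21, SE 0.24, adjusted p = 0.00228). These omissions were chosen after the values were seen. Ctsd was also the most uneven member from cell to cell: the 1% of macrophages with the most of it held 8.59% to 13.0% of its UMIs in each male, against 1.38% to 4.74% for the other members.

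**Figure D4:**
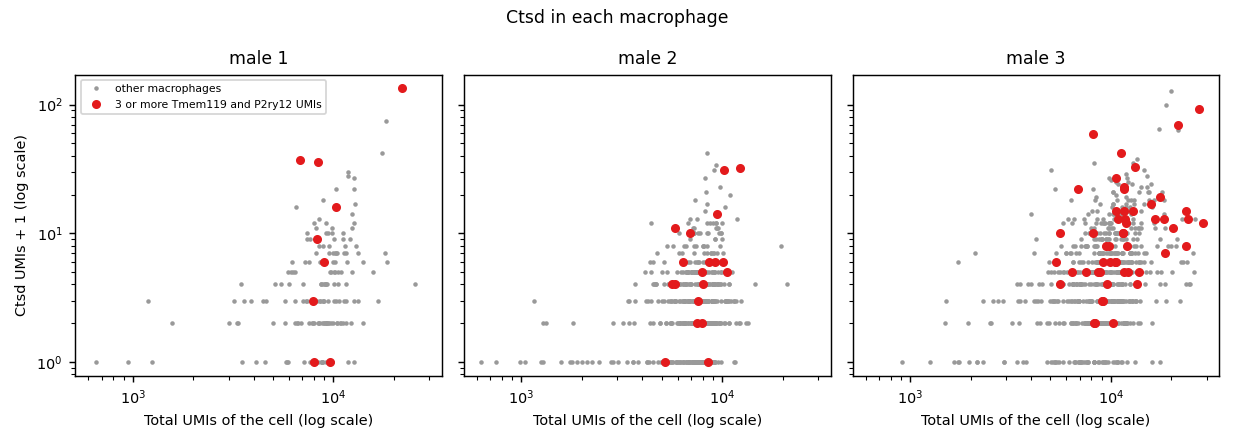
Ctsd UMIs plus 1 against the total UMIs of each macrophage, both on log axes, with 1 panel for each of the 3 males and 1 point per cell. Larger red points are cells with at least 3 UMIs of Tmem119 and P2ry12 together. The highest point of male 1 is the Ccr2-only cell with 133 Ctsd UMIs, and other cells far above the rest are both red and grey.

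In macrophages with both Fcrls and Ccr2 the mean levels of the 5 called genes lay between those of the other groups. Ctsb measured 1817, 1664 and 1766 CPM in them, Lgmn 1035, 1081 and 1145 CPM and Ctss 2803, 2682 and 3239 CPM. Their median depth was above that of both other groups in each male, at 9631.5, 7875 and 10124.5 UMIs per cell. The part of depth in this grouping was not tested. None of the 10 genes was called against Fcrls-only cells (0.661% of all genes called, 0.394% higher and 0.268% lower, and 569 genes at an unadjusted p under 0.05) or against Ccr2-only cells (0.425% called, 0.299% higher and 0.126% lower, and 553 genes). The log2 difference from Fcrls-only cells was -0.46 (SE 0.12, adjusted p = 0.104) for Ctsb and -0.40 (SE 0.12, adjusted p = 0.193) for Ctsl, and with the mouse as a block both passed (adjusted p = 0.0144, range over alternatives 0.00548 to 0.784, and 0.0298, range 0.0137 to 0.869). That fit called 200 genes against Fcrls-only and 101 against Ccr2-only cells, where the fit without a block called 42 and 27. DESeq2 called Ctsb, Ctsl and Lgmn (0.00931 for Lgmn, range 0.00931 to 0.914) against Fcrls-only cells and no member against Ccr2-only cells. From Ccr2-only cells Ctss differed by -0.40 (SE 0.14, adjusted p = 0.411) and Ctsb by 0.31 (SE 0.12, adjusted p = 0.449).

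The balance of cathepsin S to cathepsin B transcripts, a ratio looked at after both values were seen and given without a test, shifted across the 3 groups in every mouse. There were 0.905, 0.933 and 1.17 Ctss UMIs per Ctsb UMI in the Fcrls-only cells of males 1, 2 and 3, 1.54, 1.61 and 1.83 in the cells with both, and 2.61, 2.49 and 3.05 in the Ccr2-only cells. In females 1, 2 and 3 the ratios were 0.866, 1.12 and 1.03, then 1.37, 1.52 and 1.45, and then 3.06, 2.62 and 3.75. The ranges of the 3 groups did not overlap over the 6 mice.

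The females, whose cells are not in the smaller matrix, gave 16, 17 and 18 Ccr2-only cells. In them Ctsb measured 2753, 2148 and 2078 CPM in the Fcrls-only and 1166, 1177 and 858 CPM in the Ccr2-only cells, Lgmn 1299, 1167 and 1041 against 899.6, 782 and 782 CPM, and Ctss 2383, 2395 and 2141 against 3571, 3089.7 and 3212 CPM. The female fit called the 5 genes called in males and no other member, beside 3.15% of 6381 genes (1.93% higher and 1.22% lower). Its log2 differences were 1.16 for Ctsb (adjusted p = 5.25e-05), 0.93 for Ctsl (0.0066), 0.58 for Lamp1 (0.0166), 0.54 for Lgmn (0.0446) and -0.48 for Ctss (0.0314). Ctsz, at -0.017, showed next to no difference in females. The dissociation genes were higher in Fcrls-only cells here as well, at 7905 to 9010.2 against 2111 to 4811 CPM. A test of whether the subset difference itself depended on sex called 0 of 5902 genes in edgeR (0%), with 239 at an unadjusted p under 0.05, and no other tool was run. For the 10 genes the male difference minus the female difference ran from -0.39 for Ctsl to 0.14 for Lgmn, with SE of 0.17 to 0.50.

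The rest of the lysosome was read from 8 lists of genes outside the members, also chosen with earlier results of these data known. They held 119 genes, of which 82 were tested. Of these, 6 were higher and 3 lower in Fcrls-only macrophages, where 3.01% of all genes were called higher and 4.11% lower, so that the share of lower calls was near that of all genes. Their median log2 difference was 0.20 beside 0.015 over all genes tested. Among 35 tested lysosomal hydrolases and their activators 3 were higher and 1 lower, and among 15 lysosomal membrane proteins 1 was higher. None of 15 proton pump (V-ATPase) subunits was called by edgeR (3 at an unadjusted p under 0.05 and 0 called by DESeq2), and 1 of 9 sorting genes, 2 of 3 cathepsin S substrates or release genes and 1 of 4 other cathepsins were. Of the other cystatins and stefins 1, Cstb, was tested, with a log2 difference of -0.20, and it was not called by edgeR or DESeq2, and none of the 8 granule proteases activated by cathepsin C was abundant enough to be tested.

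**Figure D5:**
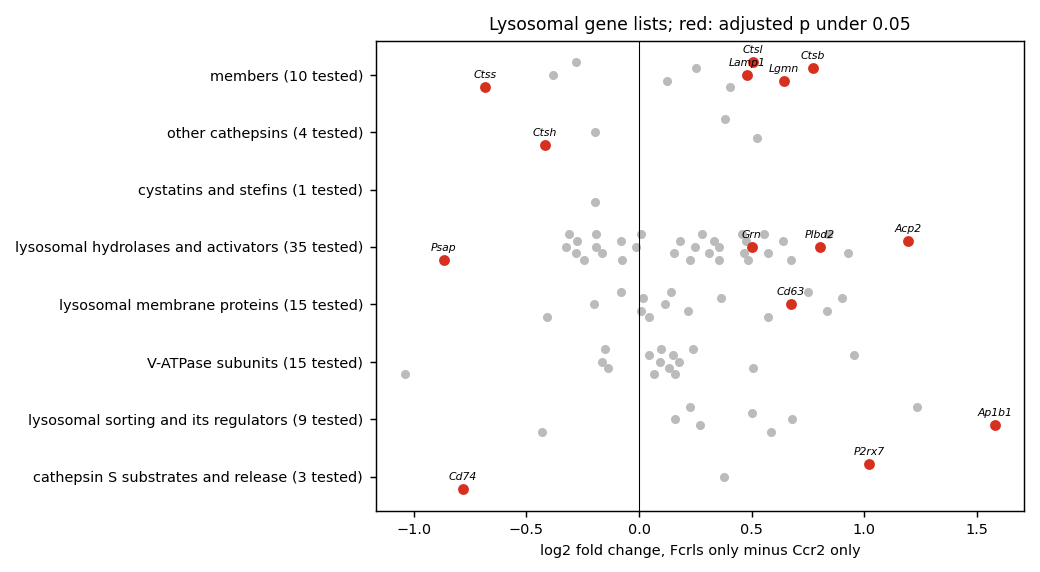
Log2 fold change, Fcrls-only minus Ccr2-only macrophages, of every tested gene in the members and in 7 other lysosomal lists. Each point is a gene, and red points with names passed an adjusted p of 0.05, among them Ap1b1, Acp2, P2rx7 and Cd63 to the right and Psap, Cd74 and Ctsh to the left.

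The called genes among the hydrolases and their activators moved in both directions. Grn, a secreted and lysosomal protein cut into granulins, measured 734, 686 and 779 CPM in the Fcrls-only and 585, 455 and 526 CPM in the Ccr2-only cells (log2 fold change 0.50, SE 0.14, adjusted p = 0.0322). Psap, the precursor of the saposins that help degrade sphingolipids, measured 1048, 928 and 837 CPM in the Fcrls-only and 1783, 1779 and 1568 CPM in the Ccr2-only cells (log2 fold change -0.87, SE 0.14, adjusted p = 0.000377). All 3 Ccr2-only values of Psap were above all 3 Fcrls-only values. Acp2, the lysosomal acid phosphatase, and Plbd2, a phospholipase B-like protein, were low in both groups, at log2 differences of 1.19 (adjusted p = 0.0427) and 0.80 (adjusted p = 0.0295).

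Genes that work beside cathepsin S split as well. Cd74, the invariant chain, measured 30608, 31032 and 19451 CPM in the Fcrls-only and 45417, 51564 and 42454 CPM in the Ccr2-only cells (log2 fold change -0.78, SE 0.18, adjusted p = 0.00864), so that it and the protease that trims it were both lower in the Fcrls-only cells. P2rx7, the ATP-gated channel that triggers release of cathepsin S from microglia, measured 44.4, 53.6 and 48.1 CPM in the Fcrls-only and 22.5, 22.7 and 25.6 CPM in the Ccr2-only cells (log2 fold change 1.02, SE 0.28, adjusted p = 0.0299), the opposite direction. Like Acp2 and Plbd2, P2rx7 was low in both groups. Ctsh, a cysteine aminopeptidase, measured 722, 643 and 648 CPM in the Fcrls-only and 950.3, 847 and 896 CPM in the Ccr2-only cells (log2 fold change -0.42, SE 0.12, adjusted p = 0.0368). Cd63, a tetraspanin of late endosomes, and Ap1b1, a subunit of the AP-1 adaptor that carries cargo from the Golgi, were higher in the Fcrls-only cells of all 3 mice (0.67, adjusted p = 0.00177, and 1.58, adjusted p = 0.000115). Without 1 mouse only 2 to 4 of these 9 calls were left, and Ap1b1 and Psap passed with each mouse omitted. In the females Psap, Cd74, Cd63 and Grn were called in the same direction as in the males, and Ap1b1, Acp2, Plbd2, P2rx7 and Ctsh were not called.

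Genes whose levels followed those of a member across the 11 classes, with the macrophages counted as 4 groups, were ranked by Pearson's r of log2(CPM + 1) among 4880 genes with at least 50 CPM in some class. These are descriptions over 11 points that share libraries. The nearest to Ctss were Plxnb2 (r = 0.977), Gusb (0.968) and Tmem141 (0.964), and the nearest to Ctsb Rcan1 (r = 0.989), Pla2g15 (0.981) and Cx3cr1 (0.975). Lgmn was nearest to C3ar1 (r = 0.994), Siglec1 (0.981) and Ccl2 (0.977), all higher in macrophages than in lymphocytes. Ctsz followed Ly86 (r = 0.989), Grn (0.971) and Ehd4 (0.969), and among the nearest to Ctsa were Clec4a1 (r = 0.963) and Ms4a6d (0.958). Cst3 was nearest to H2-DMb1 (r = 0.984), Acvrl1 (0.974) and Batf3 (0.964), the first and last known from antigen-presenting cells. Among the nearest to Ctsd were Snx18 (r = 0.972) and Cited2 (0.954). Ctsc was nearest to Vwa5a (r = 0.967), Ms4a6d (0.967) and Cln8 (0.962), Lamp1 to F13a1 (r = 0.96), Selenbp1 (0.954) and Mfsd1 (0.943), and Ctsl, the least matched, to Tnfaip8l2 (r = 0.938), Klf9 (0.923) and Tmem33 (0.919).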

How the data were processed

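DRG CD45+ cells of 6 mice were profiled in a single 10x Genomics 3′ v3 lane. The authors deposited raw UMI counts per gene and cell from Cell Ranger 3.1.0 (build mm10), once for all barcodes with the hashtag counts and once for the cells of 3 males that passed their Seurat filters. Here HTODemux (Seurat 5.3.0) with their filters (over 200 and under 5000 genes, under 5% mitochondrial reads) returned exactly the cells of that matrix (481, 772 and 1415 per male), with 0 differing counts, and 1073 female cells. All barcodes of the smaller matrix are in the larger, and each hashtag was taken as 1 mouse. Cells passing more than 1 marker gate were left out, no doublet was removed beyond the hashtags, and Scrublet (scanpy 1.11.5) marked 9 cells (0.337%), too few to count as a working call. Depth was 23403638 UMIs, with a median of 8283.5 per cell.

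Raw UMIs were summed per mouse and class (at least 10 cells) and tested with edgeR 4.0.16 (R 4.3.3; TMM, filterByExpr, quasi-likelihood test, Benjamini-Hochberg at 0.05), in 1 fit over the macrophage groups and 1 over the cell types, without the 24 gate genes and without a mouse block. DESeq2 1.42.0, other scalings, gates, splits and each mouse left out were the alternatives. Same-numbered sums come from the same mouse, so the numbers pair them; their deviations correlated at 0.0243, 0.0710 and 0.180 within males 1, 2 and 3 against a median of -0.0390 between mice. On simulated data for Fcrls-only minus Ccr2-only (6350 genes) edgeR recovered 58% and 93% of genes given log2 changes of 1 and 2, and made 9 false calls. Log2 changes under 1, the size of all called member differences in this comparison, were not simulated. The members, gates and lists were chosen with earlier results of these data known. Genes named outside the members are the 5 largest calls per list and direction in Fcrls-only against Ccr2-only macrophages and the 3 nearest genes to each member across classes. Cstb and the cells or genes said to be chosen after their values were seen are exceptions. Some genes that these rules or lists would name are not reported here. Gene positions are from GENCODE M21 (GRCm38) and promoters from RefSeq GRCm38.p6. UMIs count molecules, and intervals between mice cover the spread between mice only.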

Additional observations from a re-analysis of the deposited data

Results flagged for a closer look

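Levels of the 10 genes were screened over the 6 mice for a single mouse far from the others, by Dixon's test at 95%, in 90 groups, of which 6 were found where chance gives about 1 in 20. Ctsd in Ccr2-only macrophages was 1049 CPM in male 1 against 174 to 329 CPM in the other 5 mice, the mouse with the single cell of 133 Ctsd UMIs. Cst3 in Fcrls-only macrophages was 14363 CPM in male 3 against 17367 to 19143 CPM, and Lamp1 in the same cells was 1342 CPM in male 1 against 1000.3 to 1075 CPM. Cst3 in neutrophils was 1788 CPM in male 3 against 1049 to 1325 CPM. Ctsc in B cells was 145 CPM in female 3 against 45.3 to 73.8 CPM. Ctsl in T and NK cells was 389.8 CPM in male 1 against 24.8 to 79.8 CPM. Of the 112 Ctsl UMIs behind that value, 90 lay in 10 of 36 cells that also held Dntt, a gene of developing lymphocytes, and the other 5 mice had 0 or 1 such cell in this class.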

How the results depend on the processing

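The calls of Ctsb and Lgmn between Fcrls-only and Ccr2-only macrophages held under all 18 alternatives, and 3 of the 10 members were called with each mouse left out (3 to 3), of which the third was Ctsd without male 1 and Ctss without male 2 or 3, and 3 with the split on thinned cells. The fit with the mouse as a replicate block called 2 members for cells with both transcripts minus Fcrls-only cells, where the fit without it called 0; DESeq2 called 3 and library sizes alone 1. Among the members' tests it changed no call other than those of Ctsz, Cst3, Ctsb and Ctsl given above. Of the other lysosomal genes 9 were called, and 5 with a C1q threshold of 1%, 6 on thinned cells, 15 with all 6 mice and 2 to 4 with a mouse left out. Counts of all called genes for Fcrls-only minus Ccr2-only were 164 to 243 with a mouse left out, 272 on thinned cells and 690 with all 6 mice (452 in the fit reported), and library sizes alone split them into 248 higher and 191 lower, with a median shift of all genes of 0.12. For cells with both transcripts the counts were 87 (DESeq2) and 138 (no filter) against Fcrls-only, 117 (no filter) against Ccr2-only, 134 and 89 with all 6 mice, and 15 and 7 on thinned cells. Without male 3 the calls of macrophages minus monocytes, cDC1 and cDC2 were 1312, 837 and 976.

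Directions turned only for differences that had not been called. For cells with both transcripts minus Ccr2-only cells Ctsd was 0.021 with library sizes alone, 0.044 without a filter, 0.12 with the block, 0.30 in females, 0.36 on thinned cells, -0.41 to 0.70 with a mouse left out, 0.79 without cells with microglial genes and 0.71 without 1 cell. On thinned cells Ctsa was -0.14, Ctsc -0.033, Ctsl -0.020 and Lamp1 -0.036, and Ctsz was 0.062 in females. Against Fcrls-only cells Ctsc was -0.021 with library sizes alone, -0.017 to 0.083 with a mouse left out, -0.096 in females, -0.037 with all 6 mice and -0.014 on thinned cells. For Fcrls-only minus Ccr2-only Ctsc was -0.019 on thinned cells and Ctsd -0.060 to 1.24 with a mouse left out. Lamp1 in macrophages minus monocytes was -0.31 with library sizes alone, -0.029 to 0.085 with a mouse left out and -0.033 with all 6 mice, and minus precursors -0.31 with library sizes alone. Ctsl in precursors minus neutrophils was -0.0062 to 0.029 with a mouse left out. In the male minus female difference Cst3 was 0.012 and Lamp1 0.014 with library sizes alone, and with a mouse left out Ctsd was -0.82 to 0.48 and Lamp1 -0.17 to 0.0075. The cause was not tested. Low counts limit Lgmn and Ctsl outside myeloid cells and Lgmn in the precursors, a class that rests on 11 cells of 1 mouse.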
